A study of Homo sapiens with 24 samples.

Results

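HepG2, an established human liver cancer cell line, was examined after decitabine (5-Aza-CdR) given together with GSK-126, against HepG2 given DPBS, the buffer control. The comparison rests on 4 of the 24 RNA-seq libraries in the series: combination libraries A and B and DPBS libraries A and B, taken over every gene and every annotated repeat. Cells of the combination group received 100 nM decitabine and 500 nM GSK-126 daily for 3 days, DPBS cells received neither drug, and both groups were harvested on day 14. The series also holds HepG2 given each drug alone at the same dose, and the same 4 treatments in the liver cancer lines SNU398, harvested on day 14, and SNU475, harvested on day 21. All results concern 1 line in culture, and the labels do not state whether libraries A and B came from separate cultures. The p-values therefore measure only the spread between libraries of the same group, shared over all 24 libraries of the series.

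Decitabine is a cytidine analogue that is built into DNA and traps the maintenance DNA methyltransferase, so that methylation is lost as treated cells divide. GSK-126 blocks the catalytic activity of EZH2, the subunit of Polycomb repressive complex 2 (PRC2) that places a repressive methyl mark on histone H3. Promoter methylation and PRC2 keep separate but overlapping sets of genes silent in tumour cells, among them germ-line genes and epithelial genes, and retroviral long terminal repeats are held down mainly by DNA methylation.

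Levels are given as reads per kilobase of gene and 1000000 reads (RPKM), scaled between libraries. A change is the difference of log2(RPKM + 0.5), which understates the change of genes with low levels, and it was called when limma's Benjamini-Hochberg adjusted p over 19377 tested genes was under 0.05. The depth, in units of 1000000 reads, was 32.6 and 34.4 in the combination libraries and 51.71 and 47.79 in the DPBS libraries, within 32.6 to 60.4 over the whole series. The combination libraries thus had the lower depth, but a larger number of genes above 0, with 27613 and 28072 against 25476 and 25499. Hepatocyte markers marked the line as labelled: summed over 10 markers, the level was 11720 and 11740 in DPBS and 7430 and 7360 in the combination. Some markers of other cell types were detected. Summed myeloid markers were 439 and 453 in DPBS and 346 and 357 in the combination, nearly all of it LYZ, lysozyme, at 437 and 450 against 337 and 347. CD14, a myeloid receptor for lipopolysaccharide, was at 0.887 and 1.02 against 4.49 and 4.63, and CD3D, a chain of the T-cell receptor complex, at 0.439 and 0.444 against 1.64 and 1.49. PTPRC, the pan-leukocyte marker, was listed at 0 in both DPBS libraries and at 0.0162 and 0.0159 in the combination. In bulk RNA, fewer cells of a type and less RNA per cell cannot be told apart.

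Promoter sequences are shown for 6 genes on which the results turn, 5 that rose and 1 that fell, because CpG dinucleotides are the sites of DNA methylation. Each stretch is the 150 bases before the annotated start, from RefSeq on GRCh38.p14, read 5′ to 3′ on the gene's strand with every CpG in capitals. CTSZ lies at chr20:59007255-59007404 on the minus strand, GSTP1 at chr11:67583662-67583811 on the plus strand, MAGEA4 at chrX:151912324-151912473 on the plus strand, SPINT1 at chr15:40843898-40844047 on the plus strand, PLA2G2A at chr1:19979660-19979809 on the minus strand and ARG1 at chr6:131573076-131573225 on the plus strand.
CTSZ: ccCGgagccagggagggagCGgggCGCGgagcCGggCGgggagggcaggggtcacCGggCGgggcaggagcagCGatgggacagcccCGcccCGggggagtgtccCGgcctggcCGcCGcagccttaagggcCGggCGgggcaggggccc
GSTP1: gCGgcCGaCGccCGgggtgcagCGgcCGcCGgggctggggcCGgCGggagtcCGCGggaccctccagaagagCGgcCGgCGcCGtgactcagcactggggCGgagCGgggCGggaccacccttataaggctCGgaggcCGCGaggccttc
MAGEA4: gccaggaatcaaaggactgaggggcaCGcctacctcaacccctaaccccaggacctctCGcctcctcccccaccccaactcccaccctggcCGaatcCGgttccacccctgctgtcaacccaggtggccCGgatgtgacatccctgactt
SPINT1: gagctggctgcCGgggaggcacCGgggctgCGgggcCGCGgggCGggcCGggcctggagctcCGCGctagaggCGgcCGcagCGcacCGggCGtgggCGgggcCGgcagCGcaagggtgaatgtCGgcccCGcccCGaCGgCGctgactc
PLA2G2A: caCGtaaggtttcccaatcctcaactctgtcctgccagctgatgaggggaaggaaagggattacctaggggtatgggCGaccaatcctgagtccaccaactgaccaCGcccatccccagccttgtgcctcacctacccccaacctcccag
ARG1: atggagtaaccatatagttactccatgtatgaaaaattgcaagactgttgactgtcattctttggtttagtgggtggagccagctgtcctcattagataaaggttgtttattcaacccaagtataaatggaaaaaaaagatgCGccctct
The 150 bases held 16 CpG in CTSZ, 21 in GSTP1, 22 in SPINT1, 5 in MAGEA4, 3 in PLA2G2A and 1 in ARG1. Over 300-base windows from 250 bases before to 50 after the start, the counts were 37 for CTSZ, 36 for GSTP1, 38 for SPINT1, 10 for MAGEA4, 5 for PLA2G2A and 1 for ARG1, while 56.4% of 35116 RefSeq promoters held at least 10. The strongly raised genes shown here therefore had both CpG-rich and CpG-poor promoters. A comparison of CpG content over the raised genes was void, since under 80% of them had a promoter in the table: 684 of the 902 protein-coding genes that rose at least 2-fold (75.8%), against 11035 of all 13741 protein-coding genes tested (80.3%). Methylation was not measured in the data used here.

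Genes of the machinery that the drugs act on changed in both directions, as did all genes tested, of which 40.6% were called higher and 25.9% lower. Of 14 PRC2 subunits and demethylases of its mark, 5 were higher and 8 lower, or 7 and 5 after GC adjustment. Of 16 genes of DNA methylation, 9 were higher and 6 lower, or 8 and 5 of 15 after GC adjustment. EZH2 was at 8.37 and 8.80 in DPBS and at 4.85 and 5.29 in the combination, and it fell by 0.71 on the log2 scale (SE 0.0343, adjusted p = 1.04e-10). SUZ12, another PRC2 subunit, went from 7.11 and 7.62 to 3.96 and 4.42 and fell by 0.75. For both genes the libraries of the 2 groups did not overlap, which was true of 79.7% of all genes tested. EED, the third core subunit, fell by 0.45 (SE 0.0612, adjusted p = 1.03e-05), but with levels adjusted for transcript GC content its change was 0.06 and was not called. DNMT1, the maintenance methyltransferase, fell by 0.24, from 10.1 and 9.86 to 8.46 and 8.31. UHRF1, which brings DNMT1 to newly copied DNA, fell by 0.74, from 19.03 and 18.43 to 11.4 and 10.6. HELLS, a chromatin remodeller needed for DNA methylation, showed the deepest fall of the methylation list, from 6.87 and 7.01 to 1.68 and 1.97 (log2 change −1.68). DNMT3B, a de novo methyltransferase, rose by 0.69, from 3.01 and 3.29 to 5.24 and 5.57, and DNMT3A changed by only 0.08 (adjusted p = 0.0183). KDM6B, which removes the mark that EZH2 places, rose from 3.98 and 3.85 to 10.2 and 10.1 (log2 change 1.28). EZH2 was lower still with GSK-126 alone, at 4.42 and 4.48, whereas UHRF1 there was at 5.34 and 5.42, below both combination libraries.

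Of the 19377 genes tested, 7863 were called higher (40.6%) and 5024 lower (25.9%), and the median change over all of them was 0.08. With a 2-fold limit, 1248 calls were up (6.44%) and 536 down (2.77%), and 229 and 33 passed 4-fold. In 1247 of the 1248 and in 536 of the 536 the combination libraries both lay outside the DPBS libraries, which was true of 79.7% of all genes tested. A quantile scaling moved the balance: 47.9% of called genes were then higher, against 61.0% in the main analysis, and 5979 genes were called higher against 6496 lower.

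Change in HepG2 moved with the GC content of the transcript. Protein-coding genes with under 38% GC had a median log2 change of −0.47, and 101 of 807 fell and 7 rose at least 2-fold. Genes over 62% GC had a median of 0.58, and 179 of 1011 rose and 10 fell at least 2-fold. Across the same bins the median ran from −0.10 to 0.24 for decitabine alone, from −0.05 to 0.12 for GSK-126 alone, and from −0.07 to 0.11 for the combination in SNU398. In a straight-line description per library, the log2 level rose with GC by 0.308 and 0.224 per 10 points in the combination libraries, relative to the mean of the 8 HepG2 libraries, and fell by 0.132 and 0.17 in the DPBS libraries. The GC gradient and the treatment cannot be told apart in these 4 libraries. Many of the gene counts were therefore also taken after each library's levels were adjusted for GC content, an alternative chosen after seeing the data. Counts of repeats and of genes at 0 in 1 group were not. Over the 18605 genes with a GC value, 7452 were then called higher (40.1%) and 4423 lower (23.8%), 931 rose and 323 fell at least 2-fold, and 829 and 258 genes met the 2-fold rule both ways. Of the 1203 raised and 502 lowered genes that had a GC value, 1192 and 498 were still called in the same direction.

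**Figure D1:**
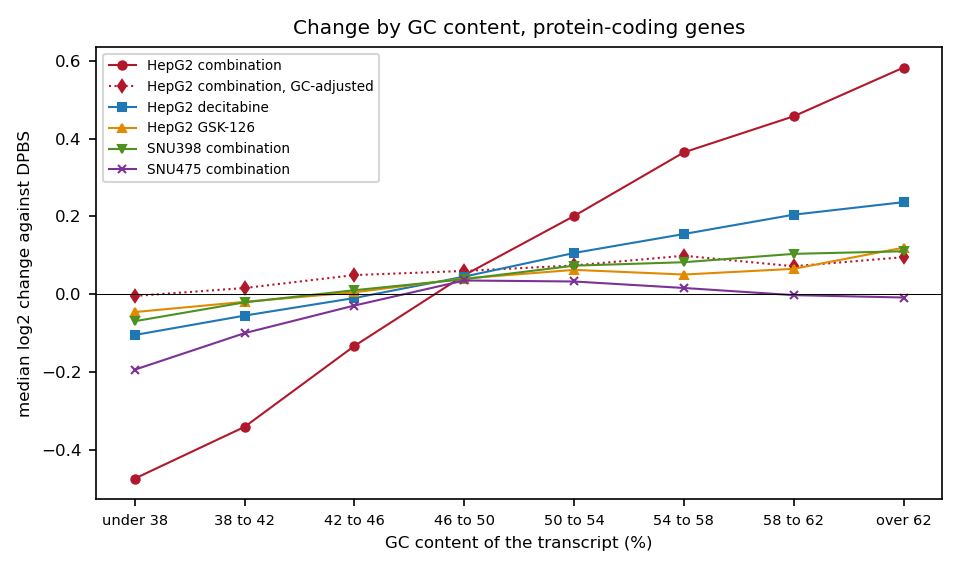
Median log2 change against DPBS of protein-coding genes (vertical axis) by the GC content of the transcript in percent (horizontal axis), for each treatment in HepG2 and for the combination in the other lines. The HepG2 combination runs from −0.47 below 38% GC to 0.58 above 62%, a wider span than each of the other lines drawn, and the dotted GC-adjusted line stays within 0.10 of 0.

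Genes that define epithelial cells and their contacts rose together. Of 10 keratins tested, which build the intermediate filaments of epithelia, 9 rose and none fell, with a median of 1.36 (1.12 GC-adjusted, again 9 higher). KRT19, a keratin of bile-duct and progenitor cells, was at 40 and 38.04 in DPBS and 194 and 184 in the combination (log2 change 2.26, SE 0.135, adjusted p = 1.18e-09). KRT23 went from 5.402 and 5.541 to 40.9 and 42.8 (2.83, SE 0.0583, adjusted p = 1.05e-14), and KRT80 from 0.405 and 0.295 to 5.88 and 5.09 (2.81). The pair of simple-epithelial keratins that hepatocytes themselves make rose less, KRT8 by 1.21 and KRT18 by 1.39. In all 5 genes both combination libraries lay above both DPBS libraries, and the groups did not overlap in 79.7% of all genes tested. Of 29 genes for epithelial adhesion and tight junctions, 21 rose and 4 fell, with a median of 0.43. The tight-junction claudin CLDN6 rose from 2.096 and 1.953 to 19.7 and 16.8 (2.89), CLDN7 from 0.00887 and 0.0274 to 2.79 and 2.42 (2.58), and CLDN14 fell by 1.09. Among 7 cholangiocyte markers 5 rose and none fell, including SPP1, the secreted phosphoprotein osteopontin, from 12.1 and 12.8 to 49.3 and 51.5 (1.98). The defining water channel AQP1 was listed at 0 in both DPBS libraries and at 0.00924 and 0.00793 in the combination.

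**Figure D2:**
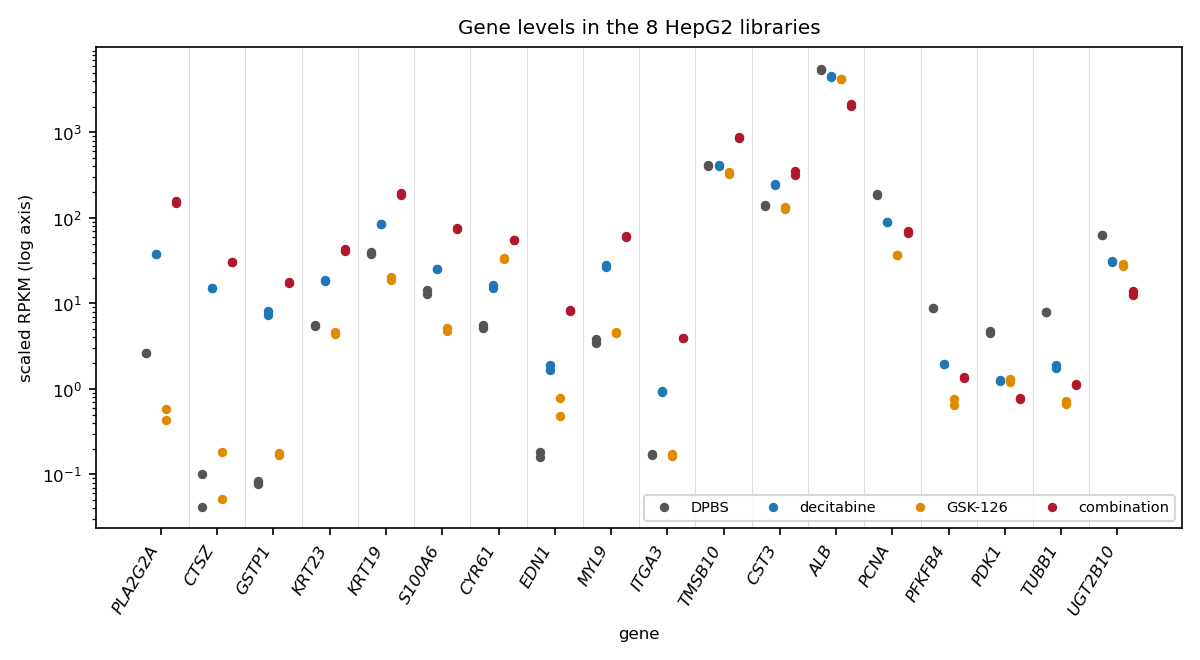
Scaled RPKM on a log axis (vertical) of 18 genes (horizontal) in each of the 8 HepG2 libraries, 1 point per library and colour by treatment. For PLA2G2A the combination libraries stand at 157 and 151, above decitabine at 37.51 and 38.01 and DPBS at 2.63 and 2.65. For PCNA the combination libraries, at 66.0 and 70.1, lie between GSK-126 at 36.4 and 36.4 and DPBS at 190 and 187.

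Genes of the cytoskeleton, the cell surface and the matrix rose with them. S100 proteins, small calcium-binding proteins, and annexins, which bind membranes in the presence of calcium, had 16 of 23 members higher and 3 lower, with a median of 0.71 (16, 4 and 0.76 GC-adjusted). S100A6 was at 14.25 and 12.97 in DPBS and 77.2 and 75.0 in the combination (2.44, SE 0.236, adjusted p = 2.68e-07), S100A4 went from 1.67 and 1.14 to 14.5 and 14.3 (2.98), and ANXA3 from 0.503 and 0.530 to 4.63 and 4.91 (2.37). Against this direction, ANXA4 fell by 1.21, from 23 and 22.98 to 9.69 and 9.68. MYL9, a myosin light chain of contractile cells, showed the highest rise of the mesenchymal list, from 3.85 and 3.42 to 61.9 and 59.3 (3.89, SE 0.231, adjusted p = 1.16e-09). TPM2, a tropomyosin, rose from 0.450 and 0.493 to 4.69 and 4.88 (2.44). SNAI2, a transcription factor of the mesenchymal state, fell by 0.95, so that the list as a whole, 13 of 20 higher and 2 lower, did not move one way. TMSB10, a thymosin that binds actin monomers, had the largest rise in level of any nuclear protein-coding gene, from 415 and 401 to 861 and 890 (1.10, SE 0.0292, adjusted p = 1.35e-13).

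Integrins and their laminin ligands, which anchor epithelia to the basement membrane, had 17 of 21 members higher and 1 lower, with a median of 0.74. ITGA3 rose from 0.175 and 0.171 to 3.90 and 3.95 (2.72, SE 0.0467, adjusted p = 1.79e-15), and its partner ligand chain LAMB3 from 0.146 and 0.103 to 3.35 and 3.08 (2.57). ITGB2, the leukocyte integrin chain, was the member that fell, by 0.82. Collagens and the enzymes that crosslink them had 22 of 28 higher and 2 lower, with a median of 0.58 that GC adjustment reduced to 0.30 (19 higher, 4 lower). The crosslinking enzymes did not go one way. LOXL4 rose from 5.01 and 4.97 to 22.5 and 22.1 (2.05), while PLOD2, a collagen lysyl hydroxylase, fell from 32.2 and 34.3 to 8.88 and 9.93 (log2 change −1.77). COL1A1 stayed low, at 0.00444 and 0.0164 in DPBS and 0.595 and 0.563 in the combination. Matrix metalloproteases and their inhibitors had 11 of 17 higher and 1 lower: TIMP2 rose by 1.54 and MMP14 by 1.79, and TIMP3 fell by 0.59. Summed markers of stellate cells and fibroblasts were 8.78 and 8.51 in DPBS and 22.3 and 22.6 in the combination. Most of that sum was ACTA2, smooth-muscle actin, at 7.82 and 7.55 against 20.3 and 19.8, and whether it had a part in the matrix result was not tested.

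Immediate signalling targets were raised as well. All 22 early-response transcription factors tested were called higher, with a median of 0.98, and GC adjustment left 20 higher and 1 lower with a median of 0.56. JUN rose from 16.4 and 16.6 to 70.9 and 64.7 (2.01, SE 0.0453, adjusted p = 2.52e-14), FOSL2 from 2.36 and 2.27 to 10.9 and 10.2 (1.98), and JUNB from 13.3 and 12.9 to 52.5 and 49.6 (1.92). Of 21 targets of YAP, the transcriptional effector of the Hippo pathway, 19 rose and 1 fell, and 19 and 1 after GC adjustment, with medians of 0.69 and 0.82. CYR61, a matricellular protein, went from 5.14 and 5.63 to 54.7 and 54.5 (3.23, SE 0.0387, adjusted p = 4.83e-17), ANKRD1 from 6.69 and 7.28 to 53.6 and 56.0 (2.89), and EDN1, the vasoactive peptide endothelin 1, from 0.159 and 0.181 to 8.46 and 8.10 (3.71). TEAD1, a DNA-binding partner of YAP, fell by 0.31, and after GC adjustment its change was −0.01 and was not called. Genes of the NF-kappaB pathway and its targets had 20 of 24 higher and 2 lower, among them IER3 from 21.6 and 20.9 to 103 and 102 (2.25) and ICAM1, the leukocyte adhesion molecule, by 1.96. Among targets of p53, 19 of 27 rose and 5 fell: PLK3 rose by 1.53 and GADD45B by 1.48, while CCNG1 fell by 1.41. The Wnt list had 25 of 33 higher and 4 lower, with NOTUM, a secreted Wnt inhibitor, going from 75.6 and 70.1 to 219 and 194 (1.497). The Notch list had 14 of 17 higher and 1 lower with a median of 0.53, and 11 and 2 with a median of 0.25 after GC adjustment.

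Secreted liver proteins did not all move one way. Coagulation factors had 5 of 17 higher and 3 lower, and plasma carrier proteins 4 of 18 higher and 3 lower. Of all genes tested, 40.6% were higher and 25.9% lower. The medians were 0.04 for coagulation factors and −0.35 for plasma carriers. These counts depended on the libraries fitted: with the 8 HepG2 libraries alone, 8 coagulation factors were higher and 4 lower, and 5 carriers were higher and 11 lower. Complement proteins rose: 16 of 21 were higher and 1 lower, with a median of 0.78 and 0.79 after GC adjustment. SERPING1, the inhibitor of the first complement component, rose from 0.149 and 0.108 to 1.96 and 1.78 (1.92, SE 0.0533, adjusted p = 2.29e-13), C1S, one of that component's proteases, from 3.05 and 2.90 to 10.1 and 10.5 (1.63), and the pore subunit C6 from 0.168 and 0.189 to 1.51 and 1.64 (1.61). MASP1, a protease of the lectin pathway, fell by 0.40. Of 15 acute-phase proteins 8 rose and 1 fell, among them LBP, which binds bacterial lipopolysaccharide, from 0.0876 and 0.128 to 2.75 and 2.62 (2.39), and LCN2, an iron-binding lipocalin, by 1.66. PLA2G2A, a secreted phospholipase that also rises in inflammation, rose by 5.62 (SE 0.0518), with 2.63 and 2.65 in DPBS and 157 and 151 in the combination.

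ALB, serum albumin and the most abundant of these transcripts, was at 5409 and 5537 in DPBS and 2048 and 2163 in the combination. AFP, the fetal albumin relative, named after its values were seen, went from 2531 and 2546 to 679.5 and 701.6, and AHSG, the carrier fetuin A, from 1974 and 1927 to 990.4 and 955. The libraries of the groups did not overlap for any of the 3, which was true of 79.7% of all genes tested. The fit over all 24 libraries, however, shares 1 spread across the lines. Its adjusted p was 0.412 for ALB, 0.154 for AFP and 0.473 for AHSG. With the 8 HepG2 libraries alone it was 2.94e-06, 7.60e-07 and 3.51e-06, an alternative of which the use for single genes was chosen after seeing the data. APOA1 and SERPINA1, 2 other abundant secreted proteins, were at 1473 and 1412 against 1775 and 1585 and at 1232 and 1215 against 1449 and 1458, and neither was called in that fit. Apolipoproteins had 6 of 19 higher and 9 lower, with a median of −0.51, and 3 higher after GC adjustment: APOA4 rose by 1.18 and APOL1 fell by 1.70, from 41.0 and 40.8 to 12.6 and 11.9. Urea-cycle and amino-acid genes had 4 of 17 higher and 7 lower, and ARG1, which makes urea from arginine, fell most, from 10.9 and 11.2 to 0.848 and 0.939 (log2 change −3.05, SE 0.0496, adjusted p = 1.06e-15). Cytochromes P450 and conjugating enzymes had 9 of 24 higher and 9 lower, where 40.6% of all genes tested were higher and 25.9% lower. UGT2B10, a glucuronosyltransferase, fell from 62.9 and 63.1 to 12.5 and 14.1 (log2 change −2.20, SE 0.152), and CYP24A1, which degrades vitamin D, rose from 3.02 and 2.96 to 14.6 and 14.8 (2.12). Liver transcription factors were also divided, with 8 of 24 higher and 9 lower, or 6 and 13 of 23 after GC adjustment: CEBPD rose by 1.80 and NR1H4, the bile-acid receptor, fell by 0.86.

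Most lysosomal enzymes and protease inhibitors rose, and genes of the IGF axis were divided. Lysosomal cathepsins and hydrolases had 23 of 27 higher and 2 lower, with a median of 0.40 (23, 1 and 0.32 GC-adjusted). CTSZ, cathepsin Z, was at 0.0421 and 0.101 in DPBS and 30.5 and 30.1 in the combination, and CTSA, the protective protein cathepsin A, rose from 18.8 and 18.4 to 45.7 and 43.4 (1.24). Protease inhibitors had 16 of 21 higher and 4 lower. SPINT1, an inhibitor of epithelial serine proteases, rose from 0.718 and 0.562 to 14.9 and 13.9 (3.71, SE 0.0728, adjusted p = 6.15e-15), SPINK1, the trypsin inhibitor of the pancreas, from 0.217 and 0.248 to 4.48 and 5.65 (2.92), and CST3, cystatin C, from 142 and 137 to 352 and 321 (1.26). CSTB, an intracellular cystatin, fell by 0.96. Of 14 genes of the insulin and IGF axis 9 rose and 3 fell. IGFBP7 went from 0.133 and 0.0241 to 3.30 and 3.05 (2.67), IGFBP2 from 0.589 and 0.505 to 6.21 and 5.97 (2.65) and IGFBP4 from 12.1 and 13.4 to 42.2 and 39.4 (1.65). IGFBP1, the binding protein with a higher DPBS level than these 3, fell by 1.06, from 100 and 100 to 48.6 and 47.3. GSTP1, a glutathione transferase that is commonly silenced in liver cancer, rose from 0.0776 and 0.0833 to 17.2 and 17.7 (4.95, SE 0.272, adjusted p = 4.73e-10).

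**Figure D3:**
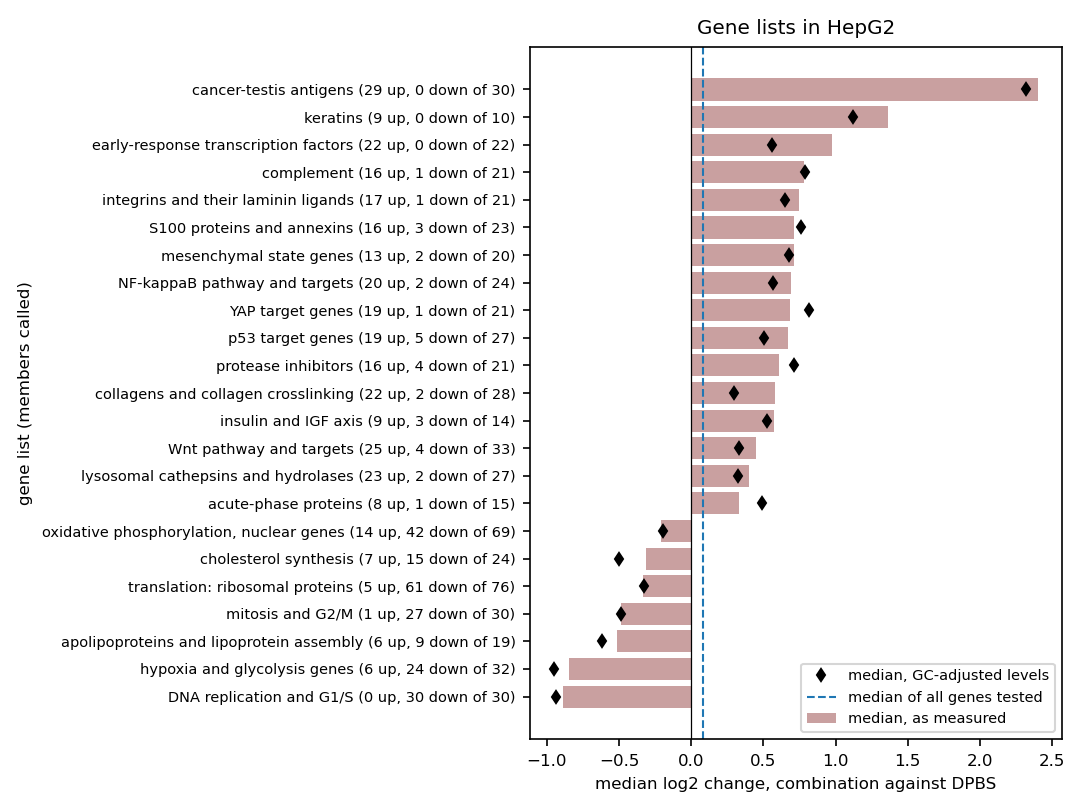
Median log2 change, combination against DPBS, of 23 gene lists (bars), with the median after GC adjustment (diamonds) and the median of all genes tested, 0.08 (dashed line). Cancer-testis antigens (2.40) and keratins (1.36) lie highest and DNA replication genes (−0.89) and hypoxia and glycolysis genes (−0.85) lowest, and no list drawn changes sign with the adjustment.

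Genes of cell division fell in the combination. All 30 DNA replication and G1/S genes tested were called lower, with a median of −0.89 (29 of the 29 with a GC value and −0.94 GC-adjusted). PCNA, the sliding clamp of the DNA polymerases, went from 190 and 187 to 66.0 and 70.1 (log2 change −1.46, SE 0.0275, adjusted p = 4.07e-15), and CDC6, a replication licensing factor, from 26.8 and 26.9 to 9.77 and 9.85 (log2 change −1.41). Mitosis genes had 1 of 30 higher and 27 lower, with a median of −0.49: KIF11, a spindle motor, fell by 1.55 and CDK1, the kinase of mitotic entry, by 1.52, while UBE2C, an ubiquitin-conjugating enzyme of mitotic exit, rose by 0.42. Replication-dependent histone genes, which are transcribed in S phase, had 44 of 64 lower and 14 higher, with 33 and 11 at least 2-fold. HIST1H4D, one of the genes for histone H4, fell from 347 and 328 to 59.6 and 61.2 (log2 change −2.47, SE 0.0692, adjusted p = 2.39e-13), and HIST1H1C, a linker histone, from 863 and 867 to 459 and 466. HIST1H1A, another linker histone, went the other way, from 0 in both DPBS libraries to 7.81 and 8.06. GC adjustment could be made for 32 of the 64 histone genes only, and their near-identical sequences let reads be assigned to the wrong copy.

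Genes of glycolysis and the hypoxia response fell in most cases. Of 32 tested, 24 fell and 6 rose, 14 and 2 of them at least 2-fold, with a median of −0.85 (26 and 5, −0.95 GC-adjusted). PFKFB4, which makes an activator of glycolysis, went from 8.82 and 8.74 to 1.39 and 1.34 (log2 change −2.31, SE 0.0434, adjusted p = 3.93e-15). PDK1, which holds pyruvate back from oxidation in mitochondria, went from 4.49 and 4.70 to 0.788 and 0.756 (log2 change −2.002). LDHA, lactate dehydrogenase, also named after its values were seen, was at 200 and 202 in DPBS and 70.3 and 71.2 in the combination, and ENO1, enolase, at 414 and 406 against 194 and 189. For these 4 genes the groups did not overlap, which was true of 79.7% of all genes tested. The rule that named PFKFB4 and PDK1 required it. Exceptions within the list were HK1, a hexokinase, which rose from 0.104 and 0.0855 to 1.14 and 1.18 (1.48), and SLC2A1, the glucose transporter, which rose from 44.1 and 42.6 to 81.3 and 75.0 (0.84). Metallothioneins, which bind zinc and copper, had 4 of 6 lower and 2 higher: MT1G fell by 1.72 and MT1F by 1.39, while MT2A, at 9.56 and 9.96 against 14.4 and 12.2, rose by 0.42, which GC adjustment reduced to 0.22 and no longer called. Metallothionein genes are also close copies of one another. Cholesterol synthesis genes had 15 of 24 lower and 7 higher: MSMO1, a sterol oxidase, fell from 57.5 and 62.8 to 14.3 and 15.7 (log2 change −1.97).

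Ribosomal protein genes fell slightly but widely, 61 of 76 lower and 5 higher, with a median of −0.33. After GC adjustment 68 of 75 were lower and 5 higher, and 0 genes were called higher both ways. RPS29 fell from 99.6 and 95.1 to 35.2 and 36.4 (log2 change −1.43) and RPS13 by 1.08. Nuclear genes of oxidative phosphorylation had 42 of 69 lower and 14 higher, and SDHD, a subunit of complex II, went from 9.01 and 9.72 to 2.101 and 2.742 (log2 change −1.76). Mitochondrially encoded mRNAs had 5 of 13 higher and 5 lower. Those that fell most were MT-ND3, from 2110 and 2009 to 660.3 and 660.5 (log2 change −1.64), MT-ATP8 (−1.45) and MT-ND4L (−1.22), which are 346, 207 and 297 bases long, while MT-CO1 rose by 0.33. Small nucleolar RNA genes had 59 of 282 lower and 21 higher and small nuclear RNA genes 31 of 191 lower and 6 higher, against 25.9% and 40.6% of all genes. The part of transcript length in these values was not tested.

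Many germ-line and imprinted genes rose from levels near 0. Of the 1383 tested genes at 0 in both DPBS libraries, 563 were above 0 in both combination libraries and 116 were called at least 2-fold higher. These genes could not fall, and each passed the level filter through other libraries. MAGEA4 (chrX:151080981-151093642 on hg19), a cancer-testis antigen, had no read in DPBS and 687 and 762 reads in the combination, 7.90 and 8.15 RPKM, at least 717-fold higher when 3 reads over the DPBS group are taken as the floor. TUBA3D, a testis tubulin, was at 0 and reached 3.22 and 4.25, at least 173-fold, although its near-identical copies make the assignment uncertain. Of 40 cancer-testis genes listed, 30 were tested, of which 29 were higher and none lower, with a median of 2.40. A member near 0 in DPBS was tested only if at least 2 other libraries reached 0.5 RPKM. The count and median therefore leave out members that stayed low in every group. MAGE and PAGE genes are close copies of one another, so their reads can be split between copies. Imprinted genes had 15 of 25 higher and 4 lower. MEG3, the maternally expressed long non-coding RNA, rose from 0.00444 and 0.0208 to 7.83 and 7.48 (3.99, SE 0.0361, adjusted p = 3.62e-18). In the same region of chromosome 14, SNORD114-21 and SNORD113-4 went from 0 to 13.8 and 16.9 and to 5.198 and 7.905, at least 32.1-fold and 14.3-fold. NDN, a paternally expressed gene, rose from 0.0111 and 0 to 2.80 and 2.71 (2.69), and PEG10 fell from 360 and 363 to 187 and 190 (log2 change −0.94). In the opposite direction, 710 tested genes were at 0 in both combination libraries, 103 of them above 0 in both DPBS libraries and 42 called lower. SNORA40, with 26 and 35 reads in DPBS, was at least 13.8-fold lower, and the floor covers counting error only.

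The combination was next set against each drug alone, 2 libraries a side in the same fit. These comparisons share the combination libraries with the comparison above, and the changes of each drug share its DPBS libraries, so levels are given side by side. A rise of 2-fold or more over decitabine alone was called for 200 genes (1.03%) and a fall for 252 (1.3%), and at any size 5817 (30.0%) and 4990 (25.8%). Over GSK-126 alone the 2-fold calls were 1145 up (5.91%) and 390 down (2.01%), and at any size 7141 (36.9%) and 5584 (28.8%). After GC adjustment the total of 452 against decitabine became 298. The combination libraries were thus farther from GSK-126 than from decitabine by these counts.

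Several of the raised genes stood well above decitabine alone. SPINK1 was at 0.563 and 0.573 with decitabine, 0.218 and 0.409 with GSK-126 and 4.48 and 5.65 with the combination, 2.37 above decitabine (adjusted p = 1.76e-10). EDN1 was at 1.89 and 1.68 with decitabine and 0.782 and 0.479 with GSK-126, and the combination at 8.46 and 8.10 lay 1.94 and 2.97 above them. TMSB10 was at 411 and 410 with decitabine, close to DPBS at 415 and 401, and the combination, at 861 and 890, stood 1.09 above decitabine on the log2 scale. S100A6 was at 25.1 and 25.4 with decitabine and 4.82 and 5.12 with GSK-126, below DPBS at 14.25 and 12.97, and at 77.2 and 75.0 with both drugs. All 9 keratins called against DPBS were also called above each drug alone, and the keratin medians against DPBS were 0.56 for decitabine and −0.09 for GSK-126. The S100 and annexin list had 17 of 23 members above decitabine and 21 of 23 above GSK-126. CYR61 followed another order, with 16.3 and 15.2 for decitabine, 33.29 and 34.14 for GSK-126 and 54.7 and 54.5 for the combination, and the YAP list medians were 0.40, 0.53 and 0.69.

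Several genes that were high with GSK-126 alone were near the DPBS level in the combination. MAT2A, which makes the methyl donor S-adenosylmethionine, was at 16.5 and 16.6 in DPBS, 125 and 125 with GSK-126 and 18.9 and 18.7 with the combination (log2 difference from GSK-126 −2.70, adjusted p = 4.49e-18). ASNS, asparagine synthetase, was at 4.13 and 4.33, 30.8 and 31.4, and 5.116 and 5.996. SLC7A11, the cystine transporter, was at 1.87 and 2.04, 15.8 and 14.6, and 1.68 and 1.83. The combination was called above DPBS for MAT2A, by 0.18, and for ASNS, by 0.35, and was not called different for SLC7A11 (−0.12, adjusted p = 0.0885). Among 24 ATF4 targets of amino-acid stress, 20 were lower and 4 higher in the combination than with GSK-126. The list medians against DPBS were 1.12 for GSK-126, 0.38 for decitabine and 0.13 for the combination. Most members still differed from DPBS in the combination, with 14 called higher and 8 lower. Replication genes were also less changed from DPBS than with GSK-126, but all 30 stayed below DPBS. Of the 30, 26 were higher than with GSK-126 and none lower, while 20 were lower than with decitabine and 2 higher. Their medians against DPBS were −0.69 for decitabine, −1.68 for GSK-126 and −0.89 for the combination. RRM2, a ribonucleotide reductase subunit named after its values were seen, was at 37.3 and 37.6 in DPBS, 21.73 and 23.01 with decitabine, 6.92 and 6.97 with GSK-126 and 18.3 and 18.6 with the combination. Against decitabine, 22 of 24 cholesterol genes were lower and 1 higher, and 29 of 30 mitosis genes were lower and none higher. Ribosomal protein genes, raised with GSK-126 (median 0.30), were lower in the combination in 73 of 76 and higher in 1. Metallothioneins were above GSK-126 in all 6 tested, with MT2A at 0.656 and 0.629 there against 14.4 and 12.2.

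**Figure D4:**
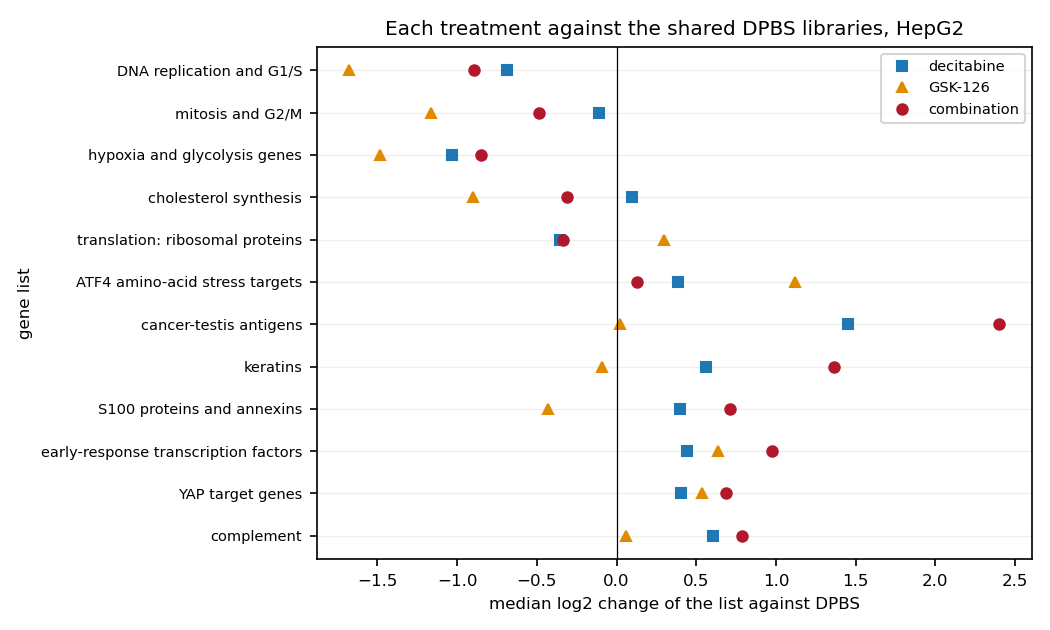
Median log2 change against the shared DPBS libraries (horizontal axis) of 12 gene lists (vertical axis) for decitabine, GSK-126 and the combination in HepG2. For DNA replication the combination (−0.89) lies between decitabine (−0.69) and GSK-126 (−1.68), and for keratins it lies above both, at 1.36 against 0.56 and −0.09.

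The same contrast in the other lines differed for many genes, tested as a difference of differences in the same fit. At least 2-fold, the HepG2 effect lay above the SNU398 effect for 909 genes (4.69%) and below it for 539 (2.78%), and above the SNU475 effect for 1820 (9.39%) and below it for 818 (4.22%). After GC adjustment the totals, 1448 for SNU398 and 2638 for SNU475, became 1134 and 2151. SNU475 was harvested on day 21 and HepG2 on day 14, so line and time cannot be told apart there. PLA2G2A, raised by 5.62 in HepG2, changed by 0.11 in SNU398 and 0.07 in SNU475. ARG1, lowered by 3.05 in HepG2, changed by 0.03 and 0.00. LOX, lysyl oxidase, fell by 2.61 in HepG2 and changed by −0.29 and 1.38.

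Repeat RNA was examined as reads per 1000000 (RPM) summed over the loci of each subfamily, with 843 subfamilies tested. Of these, 308 were called higher (36.5%) and 296 lower (35.1%), and all repeat loci together held 2.76% and 2.84% of reads in DPBS and 3.17% and 3.23% in the combination. Outside gene bodies, where repeat reads are less mixed with reads of host genes, the share was 0.359% and 0.368% against 0.503% and 0.509%. LTR12 elements, the long terminal repeats of the endogenous retrovirus HERV9, rose in 7 of 7 subfamilies, from 537 and 505 to 1213 and 1210 RPM. LTR12C alone rose from 182 and 173 to 709 and 705 (1.99, SE 0.0405), with 601 and 588 for decitabine and 154 and 156 for GSK-126. HERVH-int, the internal part of another endogenous retrovirus, rose from 12.3 and 11.2 to 42.6 and 41.4 (1.79) and stood at 47.3 and 49.7 with decitabine. Not all endogenous retroviruses rose. HERVK-int and LTR5 had 7 of 16 subfamilies lower and 1 higher, with 335 and 341 RPM in DPBS and 243 and 256 in the combination. Outside gene bodies that fall was not seen: 3 of 10 subfamilies were higher and 1 lower. The sums there were 37.2 and 38.1 RPM in DPBS and 38.8 and 39.6 in the combination. HERVE_a-int, named after its values were seen, fell from 31.4 and 31.8 to 9.91 and 11.6 (log2 change −1.52). HERV-Fc1-int, counted over 7 loci, was at 0 in both DPBS libraries and at 3.31 and 2.99 in the combination, against 1.03 and 0.897 with decitabine.

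SVA elements, composite retrotransposons found in apes, stood higher with the combination than with decitabine in every subfamily tested. Their 6 subfamilies all rose against DPBS, from 78.6 and 78.8 to 249.3 and 252.1 RPM, and decitabine alone gave 155 and 155. Each of the 6 was called above decitabine, by 0.26 for SVA_A up to 0.77 for SVA_E. Alu elements rose too, with 17 of 17 AluS, 8 of 13 AluY and 4 of 4 AluJ subfamilies higher and 1 AluY lower. L1HS, the youngest human LINE-1 subfamily, rose from 3.38 and 3.52 to 10.71 and 10.96 (1.52). L1M elements, an older LINE-1 group, mostly fell: of 77 subfamilies 58 were lower and 6 higher, from 2955 and 3086 to 2078 and 2327, although decitabine stood at 5226 and 4859 and GSK-126 at 4370 and 3891. Other families did not all go one way. MLT1 elements had 29 of 49 higher and 2 lower, MST elements 10 of 12 higher and none lower and MIR elements 2 of 4 higher and none lower. L2 elements had 3 of 4 subfamilies lower and 1 higher, from 2590 and 2698 to 2349 and 2405 RPM. L1PB elements, another LINE-1 group, had 5 of 8 lower and 2 higher. DNA transposons had 53 of 67 lower and 3 higher, but outside gene bodies 11 of 36 lower and 7 higher. LTR82A fell from 19.7 and 21.7 to 3.47 and 4.59 (log2 change −2.24), the deepest fall named. Base composition of the repeats was not analysed here, and its part in these values was not tested.

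**Figure D5:**
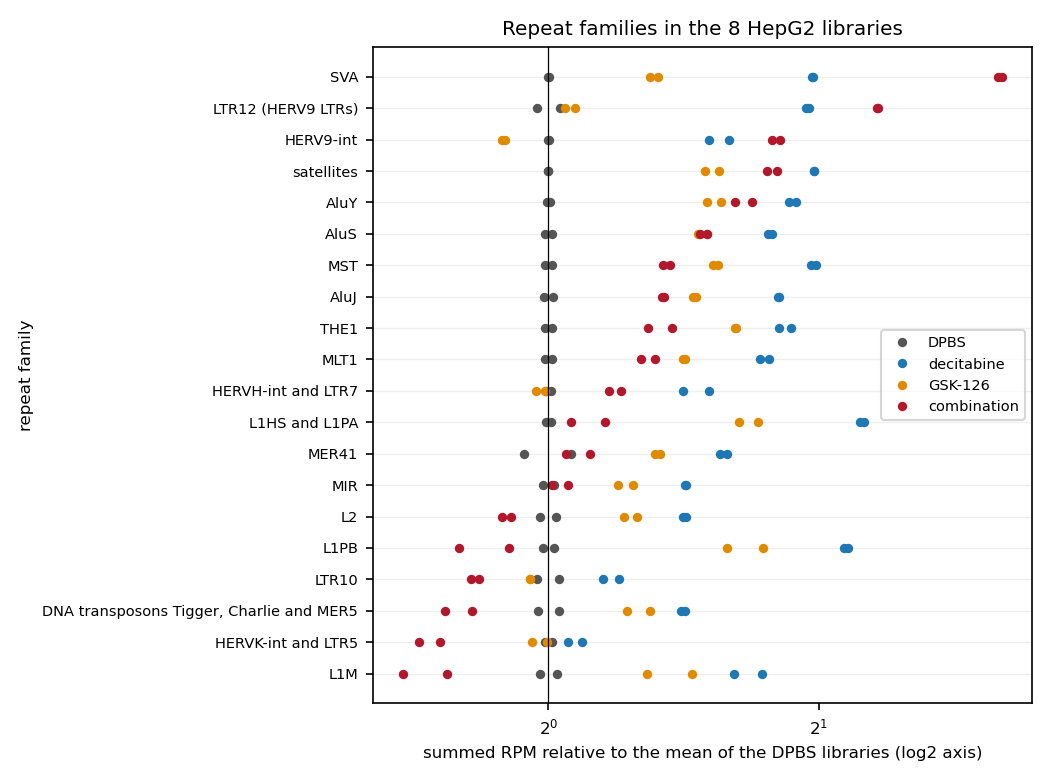
Summed RPM of each repeat family relative to the mean of the DPBS libraries (log2 axis, horizontal) in the 8 HepG2 libraries, 1 point per library and colour by treatment. SVA elements reach 249.3 and 252.1 RPM in the combination against 155 and 155 with decitabine, whereas L1M elements fall to 2078 and 2327, below DPBS at 2955 and 3086.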

How the data were processed

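RNA was sequenced from 24 libraries in 12 groups of 2. Per the labels' protocols it was depleted of ribosomal RNA and read as single ends. The deposited gene and repeat tables hold RPKM values that the authors made from reads aligned to hg19; HISAT2 and featureCounts are named per the submitters' processing notes. The strand setting, like their versions and the annotation, is not given in the sources used here, so overlapping and antisense genes cannot be told apart. No column was left unmapped.

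The deposited RPKM were rescaled between libraries (factors 0.847 to 1.158, over 8211 genes), filtered at 0.5 in at least 2 libraries, and tested as log2(RPKM + 0.5) with limma 3.58.1 in R 4.3.3, 1 model over all 24 libraries with 12 residual degrees of freedom and Benjamini-Hochberg adjustment at 0.05. Repeat reads per 1000000 (RPM) were computed from the deposited RPKM and locus lengths, with a minimum of 1 and a pseudocount of 0.5. The GC adjustment removed a smooth trend of each library's log2 level against transcript GC, fitted on 8107 genes. It covered 96% of genes tested. Whole reads could be recovered from the RPKM within 0.15 read and served limma-voom as an alternative. Floors and read numbers cover counting error only. The scripts were tested on simulated data.

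The comparison and its gene lists (72) were chosen with earlier results of these data known. Genes were named by rule: the drug targets, the largest called changes (in fold and in level), the largest called members of each list, all members of short lists, genes at 0 in 1 group, and the largest differences from other lines and, added after seeing the data, from each single drug; AFP, LDHA and RRM2 were named outside it. The alternatives were another pseudocount, filter, scaling, set of libraries, test and each library left out, with GC adjustment added after seeing the data. A few single-gene results are not reported here.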

Additional observations from a re-analysis of the deposited data

Results flagged for a closer look

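The effect of the combination differed between HepG2 and the other lines, tested as a difference of differences in limma's fit, for the genes named here, which are among the largest in each direction. Relative to SNU398 the HepG2 effect was higher by 7.94 for H19, a maternally expressed non-coding RNA (9.27 against 1.33), 5.51 for PLA2G2A, 4.79 for CTSZ (5.75 against 0.97), 3.94 for the chemokine CXCL2 (4.12 against 0.18), 3.85 for RP11-462G2.1 and 3.71 for LINC00958, all on the log2 scale. The difference was −3.80 for the linker histone HIST1H1D (−0.41 against 3.38), −3.07 for ARG1, −2.93 for EPO, the hormone erythropoietin (−2.89 against 0.05), −2.75 for SNORD91B and −2.69 for APOBEC3C, a cytidine deaminase (−0.84 against 1.85).

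Relative to SNU475, harvested later, the difference was 5.55 for PLA2G2A, 5.22 for CTSZ, 4.72 for the cancer-testis gene PAGE1, 4.60 for GSTP1 (4.95 against 0.35), 4.56 for CXCL2 and 4.54 for SPINT1 (3.71 against −0.83). It was −4.08 for HIST1H4D, where SNU475 changed by 1.60, −3.99 for LOX, −3.32 for HIST2H3D, −3.16 for PLAC8, −3.05 for ARG1 and −3.04 for HIST1H2AB. CTSZ, PLA2G2A, CXCL2 and ARG1 appear in both comparisons.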

How the results depend on the processing

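The counts of all called genes stayed within 1.5 times their main value under each alternative run. The 2-fold counts depended on how low values were treated: the 1248 raised genes became 2437 with a pseudocount of 0.1, 750 with 1 and 3635 with limma-voom on recovered reads, and the 536 lowered genes became 841, 898 with limma-voom and 323 with GC adjustment (chosen after seeing the data). limma-voom also shifted the median of all genes by 0.17. The HepG2 difference from SNU398 (1448 genes) became 2755 and 897 with pseudocounts of 0.1 and 1, that from SNU475 (2638) 4410 and 1725, and the difference from decitabine (452) became 298 with GC adjustment. The 296 lowered repeat subfamilies became 135 outside gene bodies, where 585 were tested. Leaving out 1 library gave 1188 to 1377 raised and 485 to 600 lowered genes.

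Adjusted for GC, DNMT3A was at −0.12, EED at 0.0561 and SLC7A11 at 0.36, opposite to their main sign; the cause was not tested. Of 129 list counts 18 moved by over 1.5 times with GC adjustment, and 9 of 131 with the 8 HepG2 libraries alone, where 11 plasma carriers were lower instead of 3. Libraries A and B shared only a letter: deviations of same-lettered libraries correlated at −0.05 to 0.055, and a replicate block gave 1249 and 539 genes. The lower depth of the combination libraries limits statements about genes near 0.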

Other observations

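Antigen presentation genes rose modestly. Of 20 genes of MHC class I presentation 14 were higher and 2 lower, with HLA-B going from 12.7 and 12.4 to 32.4 and 29.9 (log2 change 1.27), and 4 of 7 of class II were higher, with CD74, the invariant chain, from 24.9 and 23.3 to 55.5 and 51.1 (1.13). Clustered protocadherins, neuronal adhesion genes, had 20 of the 22 members tested higher and 1 lower with a median of 0.35, and 52 are listed. With quantile normalization 8 were higher and 1 lower, with a median of 0.08. HOX genes had 8 of 34 higher and none lower with a median of 0.08, equal to that of all genes.

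Shares of raised protein-coding genes differed between chromosomes, and so did their counts with GC adjustment. On chromosome 20, 49 of 381 tested protein-coding genes rose at least 2-fold (12.9%, against 6.56% of all protein-coding genes), and 31 after GC adjustment. On X 53 of 481 rose (11.02%), and 49 after adjustment, and on 18 only 3 of 195 (1.54%), and 6 after adjustment. Chromosome 6, which holds the main histone cluster, had 51 of 747 protein-coding genes lower at least 2-fold (6.83%, against 2.83% of all protein-coding genes), and 19 after adjustment. Genes without a GC value could not be called after adjustment. Only 32 of the 64 replication-dependent histone genes tested, over all chromosomes, had one, so the 2 counts do not cover the same genes. Over all protein-coding genes, 642 rose and 207 fell at least 2-fold after adjustment. Among 1158 long intergenic RNAs tested 111 rose (9.59%) and 17 fell (1.47%) at least 2-fold, against 6.44% and 2.77% of all genes tested.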
